A study of Caenorhabditis elegans with 8 samples.

Results

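Editing-enriched regions (EERs) are stretches of the genome in which the transcripts carry clustered A-to-I editing, which is made by ADAR enzymes on double-stranded RNA (dsRNA). The regions described here are 242 of the 1523 EERs that the study lists for *Caenorhabditis elegans*: those found in its embryo list and in none of its lists for later stages. They were chosen by position in ce10. A member overlaps a region of the embryo list (566 regions) by at least 1 bp on either strand. It overlaps no region of the L1-L2, L3-L4 or young adult lists. Of the other EERs, 324 overlapped the embryo list and a later list, 238 overlapped later lists only, and 719 overlapped none of the stage lists. An EER can be listed only where reads cover it, so the contrast of embryos with later stages chose the members. Their levels along the stages are therefore described and not tested, and the test below is that of dsRIP against total RNA.

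RNA came from whole wild-type worms of strain Bristol N2, which carried no transgene and had no treatment. There were 4 groups (embryos of mixed age, L1-L2 larvae, L3-L4 larvae, young adults), with both larval groups pooled from intermolt and molting animals. For every group the study sequenced total RNA and also RNA pulled down with the J2 antibody against dsRNA (dsRIP). This makes 8 samples by the labels, and the deposited table holds 3 numbered columns for each, which may be cultures or technical repeats. Levels are FPKM, which divides the fragments of a feature by its length and by the size of the library, given as the mean ± SD of the 3 columns.

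ADARs bind long dsRNA and turn adenosine into inosine, which sequencing reads as guanosine. In *C. elegans* adr-2 encodes the active deaminase and adr-1 a partner that binds RNA without editing it. Edited dsRNA in the worm forms mostly where inverted repeats within a transcript pair, often in introns and other non-coding parts. Dicer, the enzyme that cuts dsRNA into small RNAs for RNA interference, acts on the same kind of molecule. Embryos build the body plan from maternal transcripts and from genes switched on in the zygote, and both kinds of transcript can hold such repeats.

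The embryo and young adult labels matched their markers for the most part, while no list used here marked the larvae. Of 10 genes of early zygotic specification (such as end-1, end-3 and med-1), 9 were highest in embryos in total RNA. Of 9 young adult markers, which include the vitellogenin yolk genes, 0 were highest in embryos, and the same held for 0 of 5 sperm genes. The median young adult marker had 546 FPKM in total RNA of young adults, against 0.692, 1.08 and 2.37 at the earlier stages in order. Among 6 genes taken as larval markers, 5 were highest in embryos, so that list did not mark larvae here. Samples held 1992079 to 2264595 reads in total RNA and 1211042 to 1751557 in dsRIP, and single columns 348064 to 914442. In total RNA the members took 3996 reads in embryos, and 1348, 1327 and 1199 at the later stages in turn. In dsRIP they took 5655, 2162, 1887 and 1324 reads in the same order. Coverage of a single member was thin: over both molecules the median had 20 reads in embryos, then 8, 6 and 3 along the later stages. The 10 members with the most reads held 33.1% of the 18898 reads of all members.

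The members were of middling length and lay mostly inside genes near chromosome ends. Their median length was 484 bp (53 to 3518 bp), against 723.5 bp for EERs shared with later stages and 442 bp for those of later lists only. Of the 242, 21 were up to 100 bp long and 40 were over 1000 bp. A gene span was touched by 200 members, 193 of them lying wholly inside it. The gene stood on the same strand for 188, and on the opposite strand only for 10. The other 42 members (17.4%) lay on no gene span, against 24.4% of the EERs shared with later stages. In the outer 25% at either chromosome end lay 206 members (85.1%), as did 85.0% of all EERs and 45.2% of genes.

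Chromosome I held 88 members (36.4%), while it held 29.1% of all EERs and 12.9% of genes. On that chromosome 58 lay in the left end, 11 in the centre and 19 in the right end. Chromosomes II, III, IV and V held 33, 42, 42 and 36 members. The X chromosome held 1, in the span of sec-16A.2, a gene of vesicle traffic, against 50 of all EERs. Merged within 10 kb, the members formed 191 clusters. The median distance to the nearest region of a later list was 18884.5 bp, with 96 members within 10 kb and 6 within 1 kb.

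Members at the edge of the rule are given as description. The smallest overlap with the embryo list was 52 bp, for EA6_EER904+ in sas-1, a centriole gene (chromosome III, 12707047-12708392). The shortest distances to a later list were 70 bp for EA6_EER543+ in the aquaporin gene aqp-12 and 203 bp for EA6_EER260+. The latter lies opposite to mek-2, which encodes a MAP kinase kinase. Just outside the rule, EA6_EER168+ in gap-3 and EA6_EER605+ in the spindle checkpoint gene bub-3 overlapped a later list by 45 and 52 bp. Their embryo levels in total RNA exceeded the later mean by 1.32 and 1.13 on the log2(FPKM + 1) scale, on which all log2 values below stand and which understates differences of low features. The embryo region stood on the member's own strand for 235 of 242, and 16 members overlapped another EER, 10 of them a member on the opposite strand.

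Nearly all members had their highest level in embryos, though few were absent later. In total RNA the median member had 7.97 FPKM in embryos and 2.18, 1.53 and 0.992 along the later stages. In dsRIP the medians were 25.8, 8.47, 4.84 and 3.96 FPKM in the same order. The embryo sample was the highest of 4 for 210 members (86.8%) in total RNA and for 225 (93.0%) in dsRIP. The same held for 51.8% and 53.8% of all EERs and for 35.4% and 36.3% of genes. These shares follow the choice of the members and are given as description. In bulk RNA fewer cells with a transcript and less of it per cell cannot be told apart.

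**Figure D1:**
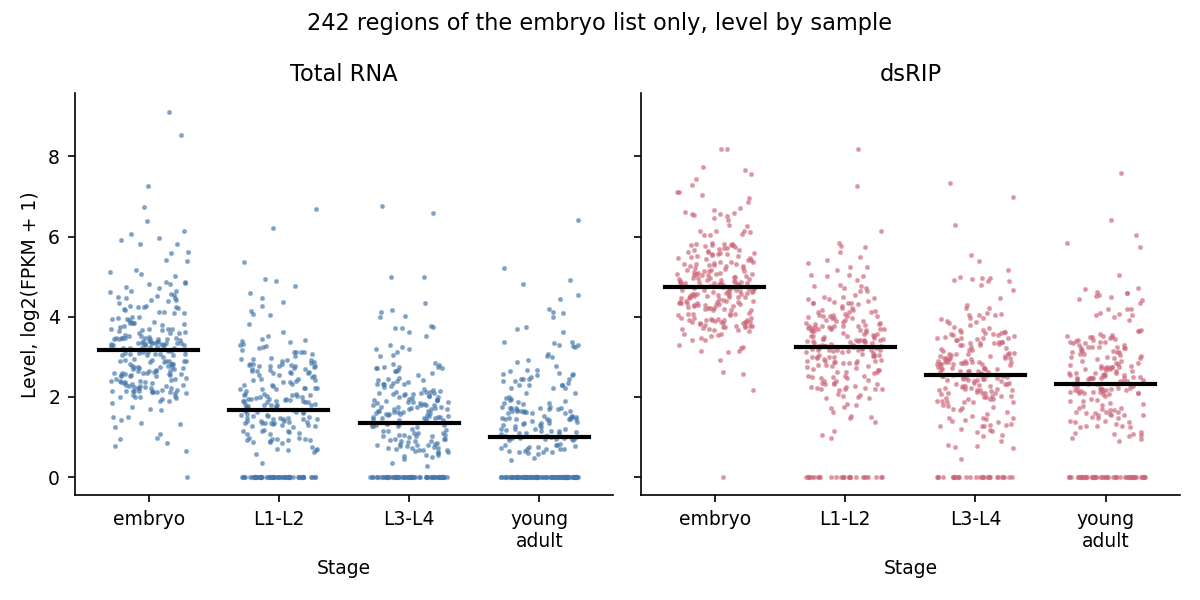
Level of each of the 242 regions (points, log2(FPKM + 1)) by stage in total RNA (left) and dsRIP (right), with the median as a bar. The embryo median is the highest in both panels, and many regions keep a level above 0 at later stages.

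The median difference of embryos from the mean of the later stages was 1.71 in total RNA and 2.11 in dsRIP. For all EERs it was 0.75 and 0.98, and for genes -0.03 and 0.00. Members ranged from -2.38 to 7.51 in total RNA. All 3 embryo columns stood above all 9 later columns for 51 members in total RNA and 99 in dsRIP, and 33 did so in both. Over all features tested this was so for 13.8% in total RNA and 13.5% in dsRIP. At later stages 21 members were without reads at L1-L2, 23 at L3-L4 and 37 as young adults, and 4 had 0 reads at every later stage in both molecules. Conversely, 11 members had at least as many reads at some later stage as in embryos. In L1-L2 larvae 33 members had at least the 20 reads of the median embryo member. Between the embryo columns a member varied by a median CV of 64.0% in total RNA and 48.4% in dsRIP.

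The most embryo-biased members differed in kind. EA6_EER564- (chromosome II, 12755776-12755848, in Y46G5A.7) had 554 ± 211 FPKM in embryo total RNA, 0 reads in both larval samples and 26.98 ± 46.7 FPKM in young adults. In dsRIP it had 200.3 ± 149 FPKM in embryos, 0 reads in both larval samples and 23.2 ± 20.4 in young adults. At 73 bp, 3 reads would stand for 22.8 FPKM in L1-L2 and 18.7 in L3-L4 total RNA, so a level below these could not be seen. EA6_EER407- (chromosome I, 13842590-13842710, in W04A8.4) had 372 ± 248 FPKM in embryo total RNA, then 40.0 ± 50.5, 8.15 ± 7.30 and 29.3 ± 26.5 along the later stages. These were the 2 highest members in embryo total RNA, and in both every later mean lay far below the embryo mean. In embryo dsRIP EA6_EER407- had 291 ± 140.1 FPKM, as high as EA6_EER800+ (chromosome III, 11136297-11136353, on no gene span) with 291 ± 82.4. In dsRIP EA6_EER800+ was nearly as high in L1-L2 larvae (290.1 ± 218 FPKM), and had 161 ± 16.9 and 84.5 ± 11.9 FPKM at the last stages. EA6_EER462- and EA6_EER471-, both on no gene span of chromosome II, had 54.6 ± 38.3 and 46.4 ± 26.5 FPKM in embryo dsRIP and at most 3 reads in any later sample.

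Some longer regions were also far higher in embryos than later. Of the 40 members over 1000 bp, 36 were highest in embryos in total RNA. Their median difference there was 1.27, against 1.71 for all members. EA6_EER463- (chromosome II, 1049170-1050951) overlaps fbxb-40, one of a large family of F-box genes whose products pick proteins for ubiquitination. It had 32.3 ± 7.94 FPKM in embryo total RNA, then 0.285 ± 0.493, 0.213 ± 0.368 and 0.635 ± 0.564 along the later stages. In dsRIP it had 44.0 ± 11.5 FPKM in embryos, 0 reads at L1-L2, 0.371 ± 0.642 at L3-L4 and 3.61 ± 3.88 in young adults. EA6_EER677+ (chromosome III, 1459064-1460786, in Y82E9BR.1) had 14.6 ± 10.3 FPKM in embryo total RNA, 0 reads in both larval samples and 1.71 ± 2.97 in young adults. Its dsRIP level was 52.9 ± 12.99 FPKM in embryos, again with 0 reads in larvae, and 3.83 ± 3.44 in young adults. A second EER of the same gene, EA6_EER678+, had 6 reads in embryos and 2 in young adults over both molecules, and none in larvae.

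At the other end stood members whose level in total RNA was lower in embryos than later. EA6_EER1452- (chromosome V, 18856674-18858633) lies in wars-1, which encodes the tryptophanyl-tRNA synthetase, and held 800 reads, the most of any member. Its total RNA level was 23.8 ± 7.96 FPKM in embryos, 28.8 ± 2.66 at L1-L2, 30.9 ± 4.88 at L3-L4 and 36.5 ± 8.55 in young adults. EA6_EER1240- (chromosome IV, 17104308-17104384) in sfa-1, the gene of a branch point splicing factor, had 54.9 ± 33.2 FPKM in embryos and 73.3 ± 44.4 to 96.1 ± 57.9 later. EA6_EER1022- in nhr-274, a nuclear hormone receptor gene, had 0 reads in embryo total RNA and 6.03 ± 0.973 FPKM in L1-L2 larvae. In dsRIP the same region had 21.6 ± 13.3 FPKM in embryos and 16.4 ± 7.35 in L1-L2 larvae. In total RNA 210 of 242 members were highest in embryos, and these 3 were among the others. The means of EA6_EER1240- differed by less than their spread. For EA6_EER1022-, 3 reads would stand for 3.19 FPKM in embryo total RNA.

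**Figure D2:**
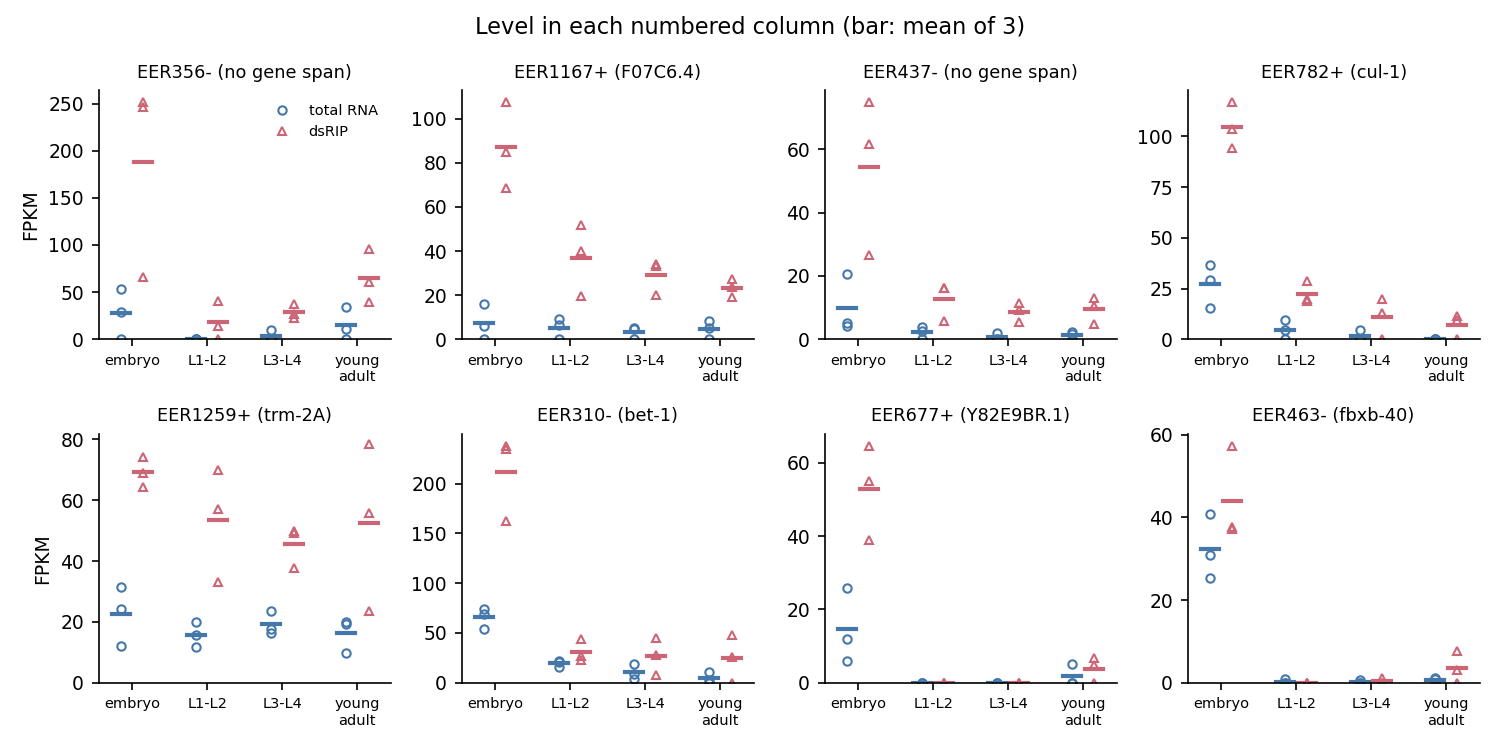
FPKM in each numbered column (circles, total RNA; triangles, dsRIP; bars, mean of 3) of 8 regions at the 4 stages, named with their host gene. In the upper row the dsRIP means lie above the total RNA means at every stage. In the lower row EER310-, EER677+ and EER463- are high in embryos and low later, while EER1259+ stays at 15.8 to 22.6 FPKM in total RNA.

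Most members had a higher level in dsRIP than in total RNA, with differences about as large as those of other EERs. The rule names neither molecule, but a region can be listed through its dsRIP reads, and 207 of the 242 were in the pooled dsRIP list. The calls are therefore not free of the choice of the members, and its part in them was not tested. The contrast was fitted by limma over 20628 genes and EER features with stage as a block. Of 242 members tested, 38 were higher in dsRIP at an adjusted p under 0.05 and 0 were lower. At an unadjusted p under 0.05 these were 152 and 0, and limma-voom on the recovered reads called 150 and 0. Over all features 2.11% were higher and 2.12% lower, and over genes 0.754% and 2.29%. Among all EERs 18.9% were higher, so the share of members (15.7%) was near that of EERs at large. With voom 7.73% of all features and 57.8% of all EERs were higher.

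The calls rested on all 4 stage pairs: without any 1 pair 0 members, and 0 of all 20628 features, passed, while 95 to 136 members had an unadjusted p under 0.05. Without the stage block 0 members passed and 65 had an unadjusted p under 0.05. With equal medians of all genes 58 members were higher and 0 lower, and over all features 823 and 291 in place of 435 and 438. That scaling moved the gene median by 0.16, from -0.12 to 0.04. Over the 24 columns, taken as replicates, 85 members (35.1%) were higher, as were 35.3% of all EERs and 3.57% of all features.

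The median log2 ratio of the members was 1.27 (quartiles 0.65 and 1.74), and 229 of 242 lay above 0. This was 1.39 above the gene median. Other EERs gave like medians, and larger or smaller shares called. EERs shared with later stages had a median of 1.44 with 142 of 324 called (43.8%), those of later lists only 1.32 with 40 of 238 (16.8%), and those of no stage list 1.38 with 70 of 719 (9.74%). In that order their median reads over the 8 samples were 114, 41 and 19, against 39.5 for the members. By stage the members gave a median of 1.58 (embryos), 1.38 (L1-L2), 1.02 (L3-L4) and 0.98 (young adults). Above 0 stood 229 members in embryos, then 204, 187 and 175 along the later stages, and 131 members at all 4 stages. Differences between the stages were not tested. All 38 called members had a ratio above 0 at every stage, and their ratios ran from 0.97 to 2.97.

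**Figure D3:**
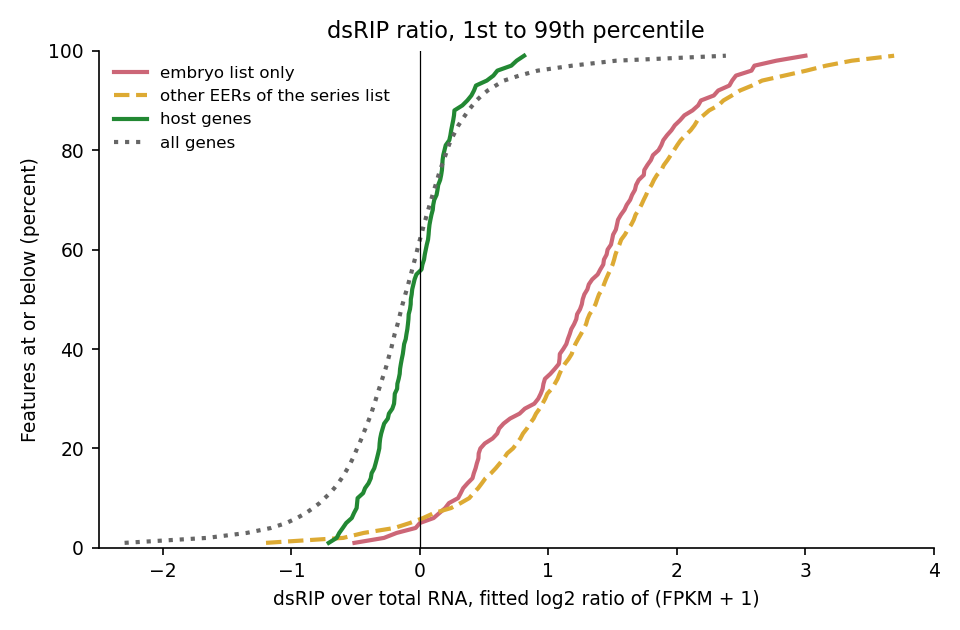
Percentiles of the fitted log2 ratio of dsRIP over total RNA for the 242 regions, the other EERs, the host genes and all genes. The curve of the 242 regions runs beside that of the other EERs with a median of 1.27, while host genes and all genes centre near 0, at -0.07 and -0.12.

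The pooled lists of the study also split the members, and since a list needs reads in the libraries it was made from, the ratios in each class are given as description. Of the 242, 135 were also in the pooled dsRIP list of the study but not in its pooled total RNA list. These had a median ratio of 1.5, with 29 called. The 72 members of both pooled lists had a median of 1.14, with 9 called. The 29 members in neither had a median of 0.63 with 24 above 0, and the 6 of the total RNA list only had -0.10 with 2 above 0, and 0 of these 35 were called. From which libraries the embryo list was called is not given in the sources used here, and the part of that choice in the ratio was not tested.

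The largest ratios among called members with at least 30 reads came from varied genes and from stretches outside genes. EA6_EER356- (chromosome I, 11604319-11604493, on no gene span) had 27.6 ± 26.8 FPKM in total RNA of embryos, 0 reads at L1-L2, 3.25 ± 5.62 at L3-L4 and 14.9 ± 17.2 in young adults. In dsRIP it had 188 ± 105, 18.1 ± 20.5, 28.96 ± 7.31 and 65.4 ± 28.4 FPKM in the same order. The dsRIP mean was the higher at every stage, and the log2 ratio was 2.97 ± 0.37 (SE, limma, adjusted p = 0.0275).

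EA6_EER1167+ (chromosome IV, 12826949-12827185, in F07C6.4) had 7.43 ± 8.18, 5.22 ± 4.73, 3.36 ± 2.92 and 4.45 ± 4.10 FPKM in total RNA along the stages. In dsRIP it had 86.9 ± 19.5, 37.02 ± 16.2, 29.2 ± 7.88 and 23.3 ± 3.92. The mean in dsRIP was above that in total RNA at each stage, with a log2 ratio of 2.74 ± 0.22 (adjusted p = 0.0143). In total RNA the stages rested on 4, 3, 2 and 2 reads, too few to order them.

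EA6_EER782+ (chromosome III, 10475470-10475715) overlaps the end of the span of cul-1, which encodes the scaffold of SCF ubiquitin ligases. It had 27 ± 10.8 FPKM in embryo total RNA, 4.70 ± 4.84 at L1-L2, 1.54 ± 2.67 at L3-L4 and 0 reads in young adults. In dsRIP it had 105 ± 11.3, 22.5 ± 5.43, 10.9 ± 10.02 and 6.88 ± 6.05 FPKM. Embryos had the highest mean in both molecules. In total RNA the later stages rested on 2, 1 and 0 reads, too few to order them. The ratio was 2.29 ± 0.23 (adjusted p = 0.0199). cul-1 itself gave -0.16 ± 0.09 (adjusted p = 0.384).

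The gene gcn-1, an activator of the kinase that slows translation when amino acids are short, hosted EA6_EER703+ (chromosome III, 2195742-2196383). Its total RNA levels were 5.71 ± 5.42, 1.36 ± 1.22, 5.55 ± 2.15 and 1.29 ± 2.24 FPKM along the stages, and its dsRIP levels 26.4 ± 8.92, 20.95 ± 4.14, 15.6 ± 10.5 and 8.87 ± 4.84. The dsRIP levels exceeded the total RNA levels throughout (log2 ratio 2.17 ± 0.34, adjusted p = 0.0415). The synaptojanin gene unc-26, needed to recycle synaptic vesicles, hosted EA6_EER1175- with a ratio of 2.14 ± 0.28 (adjusted p = 0.0305). EA6_EER1113+ in the phosphorylase kinase gene phkb-1 gave 2.43 ± 0.34 (adjusted p = 0.0349), and EA6_EER545- in pqn-87 gave 2.41 ± 0.41 (adjusted p = 0.0485). On no gene span, EA6_EER437-, EA6_EER658- and EA6_EER424- gave 2.29, 2.25 and 2.2.

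Some of the best covered members were among those called. EA6_EER1259+ (chromosome V, 909748-911295) in the tRNA methyltransferase gene trm-2A held 697 reads. It had 22.6 ± 9.74, 15.8 ± 4.09, 19.2 ± 3.75 and 16.4 ± 5.65 FPKM in total RNA, and 69.2 ± 4.98, 53.4 ± 18.7, 45.6 ± 6.94 and 52.6 ± 27.6 in dsRIP. It was called at 1.52 ± 0.11 (adjusted p = 0.0120), with no stage at which the means crossed. EA6_EER1230-, across the end of the span of rho-1, which encodes the RhoA GTPase of cytokinesis, held 496 reads and gave 1.21 ± 0.12 (adjusted p = 0.0196). EA6_EER310- in bet-1, a bromodomain gene, had 65.7 ± 10.5 FPKM in total RNA of embryos and 212 ± 42.6 in their dsRIP, with a ratio of 1.46 ± 0.27 that did not pass (adjusted p = 0.0557).

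Other long or well covered members did not pass, with ratios from -0.42 to 1.0. EA6_EER1452- of wars-1 gave -0.05 ± 0.19 (adjusted p = 0.916). The longest member, EA6_EER40+ of 3518 bp in gpa-16, a G protein gene of spindle positioning, gave 0.02 ± 0.19 (adjusted p = 0.973). The next in length were EA6_EER1309- in nhr-86 (1.0 ± 0.25), EA6_EER910+ in the SWI/SNF-like gene ssl-1 (0.60 ± 0.22), EA6_EER185+ in the nucleoporin gene npp-13 (0.46 ± 0.15) and EA6_EER277+ in the thioredoxin-like gene txl-1 (0.32 ± 0.21). None of these 4 passed, at adjusted p of 0.0969, 0.185, 0.162 and 0.421. EA6_EER564- and EA6_EER407-, the members with the highest embryo levels in total RNA, gave -0.42 and -0.14. Over the 40 members longer than 1000 bp the median ratio was 0.85 with 4 called, and over the 21 of up to 100 bp 0.65 with 2 called.

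The embryo columns alone set 3 columns of 1 dsRIP sample against 3 of 1 total RNA sample, so p-values there cover the spread of columns and not of embryo samples. By this comparison 5 members (2.07%) were higher in dsRIP, as were 3.06% of all EERs and 0.31% of all features. At an unadjusted p under 0.05 there were 101 higher and 1 lower. None of the 5 was among the 38 called over the stages. They were EA6_EER200+ on no gene span, EA6_EER1022- of nhr-274, EA6_EER1324+ of lin-40, EA6_EER1126+ of C35B1.2 and EA6_EER231- of the cysteinyl-tRNA synthetase gene cars-1. EA6_EER1324+ (chromosome V, 3709310-3709943) had 5.01 ± 4.62 FPKM in total RNA of embryos and 49.2 ± 13.5 in their dsRIP. The 2 sets of columns did not overlap, with a log2 ratio of 3.57 (adjusted p = 0.0408 over columns). Its host lin-40 encodes a subunit of the NuRD chromatin remodeller and had 204 FPKM in total RNA of embryos and 222 in their dsRIP. Every embryo dsRIP column exceeded every embryo total RNA column for 125 of 242 members, against 38.5% of all EERs and 6.03% of all features. The rule favours regions covered in embryos: the median in embryo dsRIP was 14 reads for members and 8 for all EERs. This count is therefore given as description.

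The members had 183 host genes, of which 178 were protein coding and 2 pseudogenes. In total RNA 135 hosts (73.8%) were highest in embryos, and 7, 16 and 25 at the later stages in order. Of all genes tested 35.4% were highest in embryos. The median host exceeded its later mean by 0.97 in embryos, where the median gene gave -0.03. Hosts were reached through members that the stage contrast chose, so these stage values are given as description. In dsRIP against total RNA the median host gave -0.07 and the median gene -0.12, with 4 of 183 hosts higher and 4 lower. Of all genes tested 0.754% were higher and 2.29% lower. EERs were counted as features beside genes, and 1 read may count towards a member and its host alike.

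Host genes were grouped by role once their names were known, which placed 91 of 183. Their levels by stage are likewise description, since members chosen by stage led to them. All 10 chromatin genes were highest in embryos in total RNA, with a median difference of 1.39. They include lin-40, the methyltransferase genes met-1 and set-25 for lysines of histone H3, and dot-1.1, of a further histone methyltransferase family. Host lin-40 had 204 FPKM in embryos and 42.5, 26.5 and 31.9 later, in stage order. All 9 genes of Wnt and other signalling were highest in embryos (median 1.78). Among them mig-1 and lin-17 encode Frizzled receptors for Wnt, pry-1 encodes the Axin that restrains the pathway, and mab-20 a semaphorin that guides cells. The mab-20 gene went from 186 FPKM in embryos to 17.5, 10.4 and 7.65 along the later stages.

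Cell division genes were highest in embryos for 10 of 12 (median 1.15). The spindle checkpoint gene mdf-2 gave a difference of 2.26, the centrosome gene pcmd-1 2.76 and ani-1, the anillin of the contractile ring, 1.90. Of 6 genes of adhesion and actin 5 were highest in embryos (median 1.43), among them the cadherin gene hmr-1 (2.32). The exception was unc-87, a muscle filament gene, with -1.93. Both nuclear pore genes and all 3 Mediator genes were highest in embryos.

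Among the groups, the largest median embryo difference was that of the 4 F-box genes fbxb-107, fbxb-40, fbxb-118 and fbxb-6, at 3.67. Levels in embryos were 22.6, 49.7, 9.10 and 5.34 FPKM, and no larval mean exceeded 0.581 FPKM. Some of these levels may not be separate from those of the members. In embryo total RNA EA6_EER463- had 0.651 times the FPKM of fbxb-40, and EA6_EER481+ and EA6_EER482+ had 0.666 and 1.24 times that of fbxb-107. The antidote gene zeel-1, which spares embryos from the sperm toxin of peel-1, had 32.2 FPKM in embryos, 0.472 and 0.143 in larvae and 3.18 in young adults. Its member EA6_EER208+ (chromosome I, 2344621-2345022) had 9.53 ± 4.86 FPKM in embryo total RNA and 14.4 ± 8.67 in dsRIP. It had 0 reads in larvae and 1 read in young adults. The maternal toxin gene sup-35 gave 13.8, 1.95, 4.59 and 6.87 FPKM along the stages.

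Other groups were mixed. Of 13 genes of splicing, RNA processing and decay 10 were highest in embryos (median 0.70), of 10 ubiquitin and SUMO genes 8 (1.18), and of 8 membrane traffic genes 6 (0.64). Of 4 nuclear hormone receptor genes 3 were highest in embryos (0.75), and of 3 genes of DNA replication and repair 1 was (0.76). The 5 translation genes went the other way, with 0 highest in embryos and a median of -0.51. Among them gcn-1 gave -1.70 and wars-1 -0.95.

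**Figure D4:**
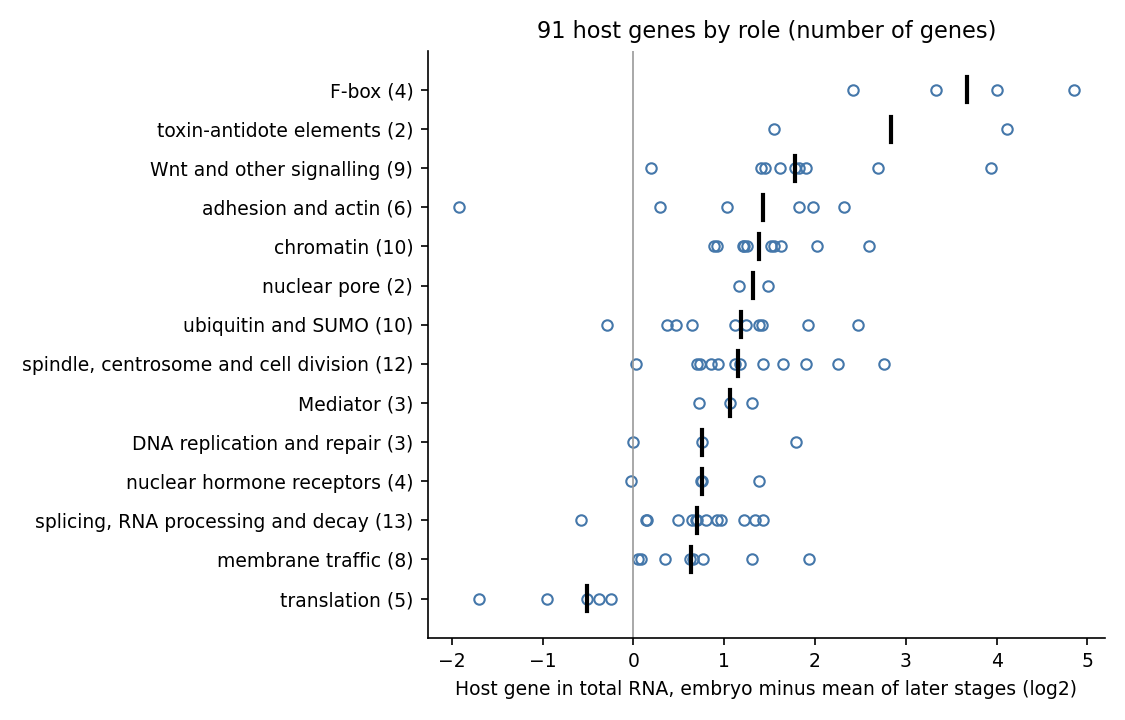
Difference of embryos from the mean of later stages in total RNA (log2) for 91 host genes (circles) grouped by role, with the group median as a bar. The median of the F-box hosts lies farthest to the right, that of the translation hosts to the left of 0, and all 10 chromatin hosts to the right of 0.

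In most pairs the member differed more between embryos and later stages than its host did. Pairs were formed where a member had 1 host and the host at least 30 reads, which gave 188 pairs with 164 hosts. The median stage difference was 1.62 for members and 0.91 for hosts in total RNA. The member's was the larger in 137 pairs. In dsRIP the medians were 2.06 and 1.08, and the member's was larger in 152 pairs. As a share of the host's FPKM in total RNA, the median member had 20.4% in embryos and 9.97%, 7.74% and 3.81% along the later stages. In dsRIP the shares were 63.5%, 44.0%, 30.9% and 15.7%. Over all members the median had 6.5 reads in embryo total RNA and 2, 1 and 1 at the later stages, so the later shares rest on few reads. The stage contrast chose the members directly and the hosts through them, and reads may be shared, so this gap is given as description.

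**Figure D5:**
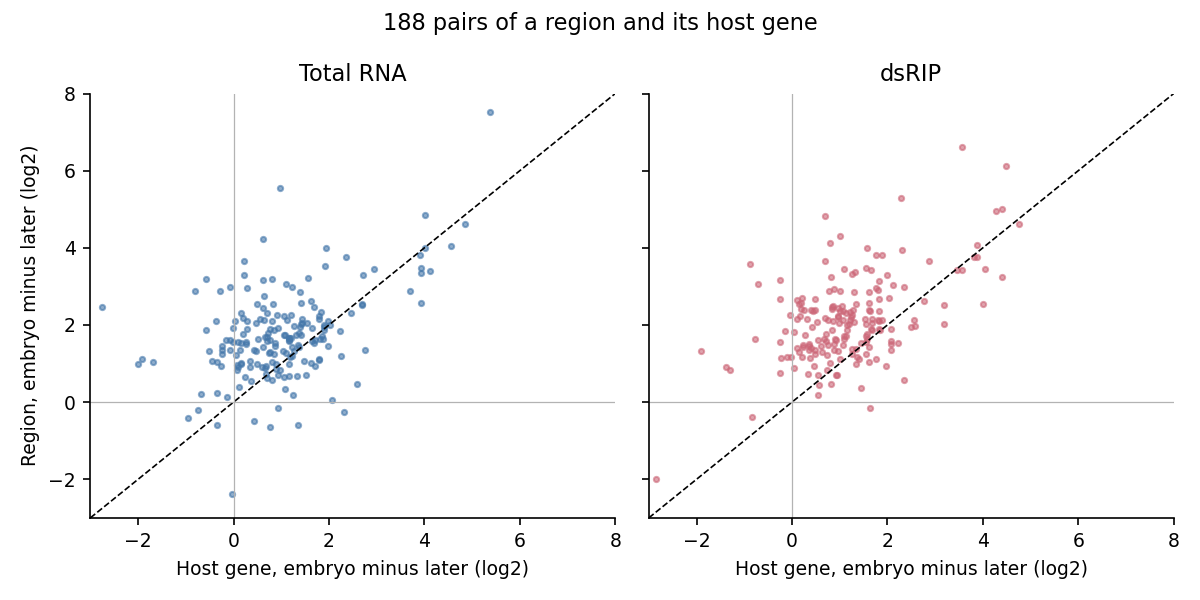
Embryo minus later difference (log2) of a region against that of its host gene for 188 pairs, in total RNA (left) and dsRIP (right), with the line of equality dashed. Of 188 pairs, 137 lie above the line in total RNA and 152 in dsRIP.

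In the ratio of dsRIP to total RNA, members stood apart from the genes around them. The member's ratio exceeded the host's in 180 of 188 pairs, with medians of 1.34 and -0.06. The 31 hosts of the called members had a median of 0.04, and 14 of them lay below 0. The difference between a member and its host was not itself tested. Of all 183 hosts 31 held a called member, and of the 4 hosts that were higher in dsRIP 3 did. They were eif-2alpha, which encodes an initiation factor of translation (1.0 ± 0.11, adjusted p = 0.0223), the dehydrogenase gene alh-7 (0.79 ± 0.09, adjusted p = 0.0254) and trm-2A (0.73 ± 0.12, adjusted p = 0.0419). In eif-2alpha, EA6_EER178+ gave 1.34 ± 0.18 (adjusted p = 0.0314). The 4 lower hosts were aos-1, a subunit of the SUMO-activating enzyme, the decapping gene edc-4, the chaperone gene dnj-1 and tat-1, a phospholipid flippase gene, at -0.63, -0.74, -0.60 and -0.48.

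Several genes hosted more than 1 member: 23 hosts held 47 members. In pola-1, which encodes the catalytic subunit of DNA polymerase alpha, 3 members lay along 1 strand of chromosome III. EA6_EER801+ (11148626-11148928) had 3.47 ± 3.16 FPKM in total RNA of embryos and 45.1 ± 18.8 in their dsRIP. EA6_EER802+ (11149984-11151402) had 2.96 ± 1.59 and 14.7 ± 2.81, and EA6_EER803+ (11153154-11153484) 5.23 ± 5.71 and 41.9 ± 12.1. All 3 had the larger mean in embryo dsRIP, and over the stages EA6_EER802+ passed (1.96 ± 0.32, adjusted p = 0.0453). In arx-1, the gene of a subunit of the actin-nucleating Arp complex, EA6_EER247- and EA6_EER248+ overlap on opposite strands of chromosome I. In embryo dsRIP they had 55.1 ± 32.4 and 100.1 ± 32.9 FPKM, against 2.72 ± 4.70 and 10.1 ± 10.4 in total RNA. The sources used here do not say whether reads were counted by strand, so reads of such a pair cannot be told apart. Y92H12A.5 held 3 members, again with a pair on opposite strands, and none of them passed.

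Members of 1 gene could stand on either side of the threshold with like ratios. In unc-71, a gene of axon and cell migration, EA6_EER918- passed (1.90 ± 0.29, adjusted p = 0.0416) and EA6_EER917- did not (1.80 ± 0.73, adjusted p = 0.230). Also, 65 hosts held other EERs, and in 40 of them one of these was in a later list, so that a region of the embryo list alone and a region of a later list stood in the same gene.

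The genes that act on dsRNA were themselves tested, as a list of 44 genes of ADAR, Dicer, RNA interference and related pathways. Of 43 tested, 21 were highest in embryos in total RNA and 0 passed in dsRIP against total RNA by limma. At an unadjusted p under 0.05, 2 were higher and 14 lower, and voom called 1 higher and 9 lower. Among all 19091 genes tested, 3785 had an unadjusted p under 0.05 in either direction by limma. Voom called 3.70% of genes higher and 9.32% lower. The median ratio was -0.24 for the list and -0.12 for all genes. The editing partner adr-1 had 63.7 ± 12.8 FPKM in embryos, then 23.7 ± 3.32, 29.8 ± 3.97 and 26.98 ± 0.433 along the later stages. The deaminase adr-2 had 52.2 ± 2.23, 24.7 ± 4.01, 20.9 ± 3.19 and 33.6 ± 18.8 FPKM. Both were highest in embryos. The Dicer gene dcr-1 was not, with 25.8 ± 2.03 FPKM in embryos and 29.1 ± 10.3 in young adults, means closer than their spread.

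Only 1 gene of that list hosted members, rsd-2, which is needed for RNA interference to act in the germline. It had 73.2 ± 8.97 FPKM in embryos, 17.04 ± 2.58 and 18.6 ± 2.51 in larvae and 32.04 ± 15.6 in young adults. Its members EA6_EER1199- (chromosome IV, 13524767-13525307) and EA6_EER1200- (13528410-13528903) had 7.51 ± 4.21 and 5.05 ± 3.28 FPKM in embryo total RNA. In embryo dsRIP they had 11.8 ± 5.98 and 10.5 ± 9.25. Neither passed, with ratios of 1.04 ± 0.37 (adjusted p = 0.182) and 0.61 ± 0.66 (adjusted p = 0.648).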

How the data were processed

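The deposited table holds FPKM computed by the authors for 25509 genes and 1541 EERs in 24 columns. Per the submitters' processing notes, Novoalign, bedtools 2.19.0 and SAMtools 0.1.19 were used on ce10, and per the labels' protocols libraries were stranded and dsRNA was taken with the J2 antibody. Each deposited region list holds positions with a score per region, for which the files give no definition.

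Columns were assigned to samples by name (0 left over) and the 3 columns of a sample averaged. For the L3-L4 dsRIP sample the stage came from the characteristic, since the title says L4-L4. The spread over 3 columns may be technical, and p-values over the 8 samples compare 4 stage pairs. Whole reads were recovered from the steps of the FPKM scale. For EERs the length of the region was used. For genes the length was fitted, as the shortest that made every column whole within 0.01. All 353858 values above 0 then lay within 0.01 of a whole number. For genes this follows from the fitted length and is no check of their reads. A feature was tested where 2 or more of the 8 samples reached an FPKM of 1, as all 242 members did. limma 3.58.1 (R 4.3.3; lmFit, and eBayes with trend) compared dsRIP with total RNA on log2(FPKM + 1), stage being a block. Benjamini-Hochberg adjusted p-values, over all features, were called under 0.05. The fit was run on simulated counts with columns drawn independently and effects only in features of higher mean FPKM. That simulation held no variation between samples, so it is no check of the calls at thinly covered members. Counts of 0 allow up to 3 reads, given as FPKM; this covers counting error only. Overlaps and summaries were made in Python 3.11.15 with pandas 2.3.3 and numpy 2.4.6.

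Hosts are genes of the table whose ce10 span touches a member. Gene symbols were matched on sequence names to WBcel235 (24765 genes), and no position was taken from it. Members were named by rule: the 10 largest called ratios with at least 30 reads, the highest embryo levels, the 5 longest, the extremes of the stage difference, and those at the edge of the definition, with hosts of these or of 2 or more members. EA6_EER208+, EA6_EER1230-, EA6_EER1259+ and the other members or hosts named for their role were chosen after their values were seen. The members and all gene lists were chosen with earlier results of these data known. Alternatives were a pseudocount of 0.5 or 5, other filters, scalings and models, and overlap rules. No genome of the ce10 build was used, and sequences are not shown.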

Additional observations from a re-analysis of the deposited data

How the results depend on the processing

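Read depth was low: 81 of 242 members had under 30 reads over the 8 samples, and a p-value rests on 4 pairs. The number of members called higher in dsRIP, 38 as reported, was 17 with no filter on low values, 58 with equal medians of all genes, 0 with no stage block, 11 with no trend and 0 to 0 with 1 stage pair left out. It was 5 in embryo columns only, and, by models added after the data were seen, 150 with voom over 8 samples and 167 over 24 columns. Over the 24 columns it was 85, and 86 with column number as a replicate block, which shares only a number and pairs no samples by the labels. It stayed within 1.5 times under a pseudocount of 0.5 (26) or 5 (28), quantile normalisation (28) and a filter at 10 FPKM (36 of 146). Of the 38, voom over 8 samples also called 38, the 24 columns 31, and the fit with no trend 11. The count called lower was 0 in all of these. The median ratio was 0.76 with a pseudocount of 5 and 1.65 in embryo columns, and 1.17 to 1.37 with 1 pair left out. Under the other definitions the number of members was 81 with the upper 50% of the embryo list by score and 35 without those of the pooled dsRIP list. It was 236 to 243 under the other overlap rules and 164 without those of the pooled total RNA list. With a mean FPKM of at least 10, 66 of 76 members were highest in embryos in total RNA and 71 of 76 in dsRIP. The sign of the ratio changed in 22 settings of 8 named members, none of which passed as reported. EA6_EER40+ gave -0.0091 with a pseudocount of 5, -0.39 in embryo columns, and -0.040 and -0.0086 with voom over 8 samples and 24 columns. EA6_EER407- gave 0.024 with equal medians, 0.048 over 24 columns with or without the replicate block, and 0.076 with voom over these. EA6_EER1452- gave 0.11 with equal medians and 0.0038 with quantile normalisation, and EA6_EER200+ -0.068 with a pseudocount of 0.5. In embryo columns EA6_EER321-, EA6_EER372- and EA6_EER1136- gave -0.16, -0.62 and 0.16. With 1 stage pair left out, the ratio ran from -0.086 to 0.14 for EA6_EER40+, -1.12 to 1.31 for EA6_EER200+, -0.023 to 0.68 for EA6_EER393+, -0.74 to 0.15 for EA6_EER407-, -0.54 to 0.14 for EA6_EER1136- and -0.24 to 0.14 for EA6_EER1452-. The cause of these shifts was not tested, other than fewer samples or regions where the alternative holds fewer.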
